A study of Homo sapiens with 19 samples.

Results

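This section describes 49 genes of receptor tyrosine kinases at superenhancers and OCT-2 binding sites of MDA-MB-231, a human triple-negative breast cancer cell line. The genes are a list of names, and all 49 were matched by symbol in a RefSeq table that holds 20037 protein-coding genes on the chromosomes used. The list leaves out 4 further receptor tyrosine kinase genes, EGFR, AXL, ROR1 and MET, and was drawn up with earlier results of these data known, so counts are also given with these 4 added. A gene was counted at a superenhancer, a broad region of dense H3K27 acetylation, or with an OCT-2 peak when its gene body, extended by 10 kb on each side, overlapped one. Of the series' 19 ChIP-seq samples, 3 pairs of replicates stand behind the values used here. The first population, 231Pa_Luc+GFP, is the parental line with luciferase and GFP transgenes, and the second, 231Pa_Luc+OCT-2, carries luciferase and POU2F2, the gene of the octamer-binding factor OCT-2. Both were precipitated with an antibody against H3K27ac in 2 samples each, and the OCT-2 cells also with an antibody against OCT-2 in 2 samples. The labels describe both populations as polyclonal with stable transgene expression, and what promoter drives the transgenes was not stated there.

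The authors made 1 list of regions from each pair of samples, with positions alone: 337 superenhancers of 231Pa_Luc+GFP, 518 of 231Pa_Luc+OCT-2 and 5741 OCT-2 peaks of 231Pa_Luc+OCT-2, of which 5736 on assembled chromosomes were used. The lists hold no read counts and no value for each sample, so the depth and the spread between replicates are unknown, and the values below are counts without a test. OCT-2 superenhancers were split into 314 that overlap a region of the GFP cells by 1 bp or more (shared) and 204 that do not (Luc+OCT-2-only), and 29 regions of the GFP cells overlap none of the OCT-2 cells (Luc+GFP-only). Of 8 marker genes fixed for mesenchymal basal cells, VIM, CD44, ITGB1 and AXL (4) lay at shared superenhancers, against 3.87% of all protein-coding genes and 3.48% at the markers' lengths. None of 8 luminal markers and none of 6 leukocyte markers lay at a superenhancer of either list, and of 5 endothelial markers PECAM1 did, at a Luc+GFP-only region. Over both lists 5.98% of all protein-coding genes lay at a superenhancer. For genes of the same lengths this comes to 0.501 luminal, 0.375 leukocyte and 0.303 endothelial markers. Finding no luminal or leukocyte marker thus says little on cell type, and PECAM1 was 1 endothelial marker against 0.303.

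Receptor tyrosine kinases cross the cell membrane once and carry a kinase domain inside the cell. A bound ligand brings receptors together, they phosphorylate each other on tyrosines, and adaptors such as the SHC1 and GRB2 proteins dock there and pass the signal to RAS, MAP kinases and PI3-kinase. Sprouty proteins, MAP kinase phosphatases and the ERBB inhibitor encoded by ERRFI1 limit the signal. Triple-negative tumours lack ERBB2 amplification and hormone receptors by definition, and EPHA2 is known as an abundant receptor of basal-like breast cancer cells.

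No receptor gene met a superenhancer listed solely for the OCT-2 population. Of the 49, 0 met a Luc+OCT-2-only region, against 1.93% of all protein-coding genes. Receptor genes are long, with a median length of 82.8 kb against 24.1 kb for all protein-coding genes, and long genes can meet a region more often by length alone. The share of all genes was therefore also computed in each decile of gene length and weighted by the number of receptors in it; at the receptors' lengths it came to 2.17%, or 1.06 genes of 49. Shared superenhancers met 2 receptor genes (4.08%), EPHA2 and MUSK, against 3.87% of all protein-coding genes and 3.73% at the receptors' lengths. At Luc+GFP-only regions there was again none, against 0.245% of all genes. Over both lists 2 of 49 receptors met any superenhancer, against 5.98% of all genes and 6.0%, or 2.94 genes, at the receptors' lengths. Matching for length thus hardly moved the shares at superenhancers. The counts were near those of all genes at the receptors' lengths. The count over both lists depends on which receptors are included. With EGFR, AXL, ROR1 and MET added, 5 of 53 receptors (9.43%) met any superenhancer, against 6.01% or 3.18 genes at their lengths. Of those 53, 4 were at shared regions, 1 at a Luc+GFP-only region and still 0 at a Luc+OCT-2-only region. With gene bodies extended by 50 kb 1 of the 49, KDR, joined the Luc+OCT-2-only class, against 2.71% of all genes, and with each region given to its nearest protein-coding gene again KDR, against 0.988%.

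**Figure D1:**
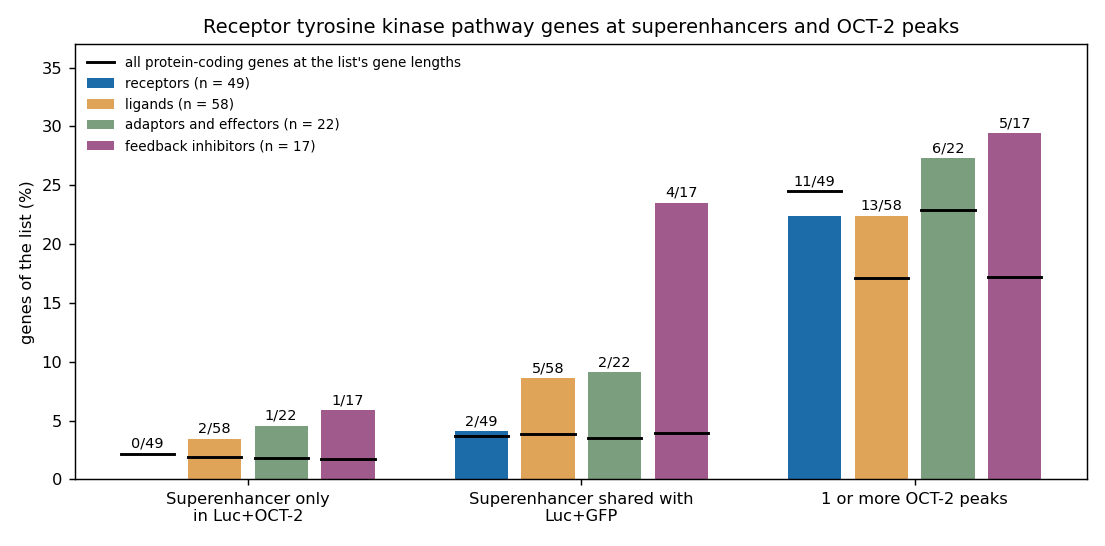
Share of receptor genes and of 3 lists of related genes (vertical axis, percent of the list) at Luc+OCT-2-only superenhancers, at shared superenhancers and with an OCT-2 peak within 10 kb; numbers above the bars are genes over list size, and black lines give the share of all protein-coding genes at the lengths of each list. The receptors stand at 0/49, 2/49 and 11/49, below or close to their black lines.

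EPHA2 encodes a receptor for ephrin-A ligands on neighbouring cells. Its gene (NCBI gene 1969, hg38 chr1:16124337-16156069, minus strand, 31.7 kb) lay whole inside a superenhancer in both populations. It spanned 139.4 kb where OCT-2 was forced (chr1:16121853-16261288) and 139.0 kb in the GFP population (chr1:16121931-16260916), so that 99.7% of the first was covered by the second. It ranked 92 of 518 by width in the OCT-2 cells and 97 of 337 in the GFP cells. ARHGEF19, CPLANE2 and FBXO42 overlapped the same region, and by the nearest gene alone it was not counted for EPHA2. A single OCT-2 peak lay in it, chr1:16155971-16156291, 321 bp wide, and its centre was at -62 bp from the start of EPHA2, counted with upstream as negative. OCT-2 binding in this superenhancer was thus listed at the receptor's own start, in a region listed with nearly the same borders in the cells without the OCT-2 transgene. The series holds no OCT-2 ChIP of the GFP cells, so binding there is not known.

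EPHB4, the receptor for ephrin-B2 that is known from the formation of veins, was the other receptor gene with an OCT-2 peak at its start. The gene (NCBI gene 2050, chr7:100802565-100827523, minus strand, 25 kb) lay 5449 kb from the nearest superenhancer of the OCT-2 cells. Its peak, chr7:100827562-100827800, was 239 bp wide and centred at -158 bp from the start, and it lies inside the gene body of SLC12A9 as well, which runs the other way. EPHA2 and EPHB4 were the 2 receptors of 49 (4.08%) with a peak within 1 kb of either gene end, against 2.91% of all protein-coding genes. Within 1 kb of a RefSeq start the background was 3.12% of the 15843 protein-coding genes with a start in the promoter table. Both belong to the Eph family, the largest among the receptors, with 9 EphA and 5 EphB genes.

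The promoters of both genes are shown because these are the places where the deposited peaks meet a receptor's start. Each window runs from 250 bases before to 50 bases after the start, 5′ to 3′ on the gene's minus strand (RefSeq, GRCh38.p14), and capitals mark the bases that lie in the OCT-2 peak, 272 of 300 for EPHA2 (chr1:16156020-16156319) and 212 of 300 for EPHB4 (chr7:100827474-100827773).
EPHA2: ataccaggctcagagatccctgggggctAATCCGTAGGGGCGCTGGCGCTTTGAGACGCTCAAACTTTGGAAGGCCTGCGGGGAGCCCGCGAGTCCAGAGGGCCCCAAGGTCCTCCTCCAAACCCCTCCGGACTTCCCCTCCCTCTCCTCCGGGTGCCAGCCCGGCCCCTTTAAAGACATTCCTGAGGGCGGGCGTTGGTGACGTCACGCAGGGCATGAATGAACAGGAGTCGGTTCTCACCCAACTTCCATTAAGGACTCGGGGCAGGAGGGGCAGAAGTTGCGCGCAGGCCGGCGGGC
EPHB4: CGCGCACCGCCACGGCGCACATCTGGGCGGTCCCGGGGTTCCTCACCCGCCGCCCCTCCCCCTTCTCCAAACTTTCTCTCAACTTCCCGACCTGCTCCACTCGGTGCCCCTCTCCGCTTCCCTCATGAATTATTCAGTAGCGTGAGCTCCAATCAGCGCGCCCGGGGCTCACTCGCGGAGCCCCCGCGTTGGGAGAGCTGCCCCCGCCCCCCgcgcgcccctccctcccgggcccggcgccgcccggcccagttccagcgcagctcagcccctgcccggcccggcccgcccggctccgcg
Both are rich in G and C, 64.3% and 74.3%, with 20 and 36 CpG dinucleotides, against a median of 58.7% G and C over 35116 promoter windows of the RefSeq table. The octamer ATGCAAAT, the element for which OCT-2 is named, was searched on both strands and was in neither window. It was present in 1.77% of all windows, in 15.7% of the 496 windows that overlap an OCT-2 peak and in 1.57% of the 34620 that do not. With any base at the fifth position (ATGCNAAT) these shares were 2.97%, 18.8% and 2.74%, and again neither window had a match. The absence of these letters from a window of 300 bp is no statement on how OCT-2 was held there.

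Promoter windows were given for 44 of the 49 receptors, 74 windows in all, with a median of 64.0% G and C. The octamer was in 1 of the 74 (1.35%), that of ALK, a receptor best known from fusions in lymphoma and lung cancer. It is shown for contrast, with the octamer in capitals on the reverse strand, beginning 186 bases before the start (chr2:29921537-29921836, minus strand).
ALK: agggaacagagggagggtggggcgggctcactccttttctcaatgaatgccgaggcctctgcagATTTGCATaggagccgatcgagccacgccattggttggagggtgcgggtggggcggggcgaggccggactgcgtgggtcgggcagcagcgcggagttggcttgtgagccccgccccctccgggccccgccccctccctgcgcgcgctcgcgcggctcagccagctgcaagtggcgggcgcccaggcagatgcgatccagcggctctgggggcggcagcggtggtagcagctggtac
ALK, 728.8 kb long, had no OCT-2 peak within 10 kb in these cells, and the nearest was 78.6 kb from the gene. A superenhancer of both populations lay 52.7 kb from it, at CLIP4. Among the receptors, then, the promoter with the octamer had no peak listed and both promoters with a peak lacked the octamer. These are 1 and 2 windows, too few for a pattern. Over all windows the octamer was more frequent in those that overlap a peak (15.7%, against 1.57% of the others).

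MUSK, which encodes the muscle-specific kinase that receives agrin at the nerve-muscle junction, was the second receptor at a superenhancer and had the most OCT-2 peaks. The gene (NCBI gene 4593, chr9:110668791-110806558, plus strand, 137.8 kb) lay whole inside 1 region of 240.7 kb in the GFP cells (chr9:110603851-110844525), the 20th widest of 337. The OCT-2 list held 2 regions in its place, of 98.9 kb (chr9:110603965-110702863) and 131.9 kb (chr9:110737457-110869306), with a gap of 34.6 kb between them that lies inside MUSK. The first contains the start of MUSK and 24.7% of its gene body, the second 50.2%. Whether the gap reflects signal or the joining of neighbouring calls cannot be read from positions. MUSK was the sole protein-coding gene whose body overlapped these regions, and LPAR1 and SVEP1 lie on either side. The body of LPAR1, from chr9:110873263, is within 10 kb of the second Luc+OCT-2 region, so the 10 kb rule places LPAR1 there too. Of 5 OCT-2 peaks in these superenhancers, 4 were in the gene body, 3.31, 84.1, 108.5 and 129.0 kb downstream of the start, and the gap held none. MUSK is known from muscle, and its place in these regions does not show that it is transcribed in the breast cancer cells.

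**Figure D2:**
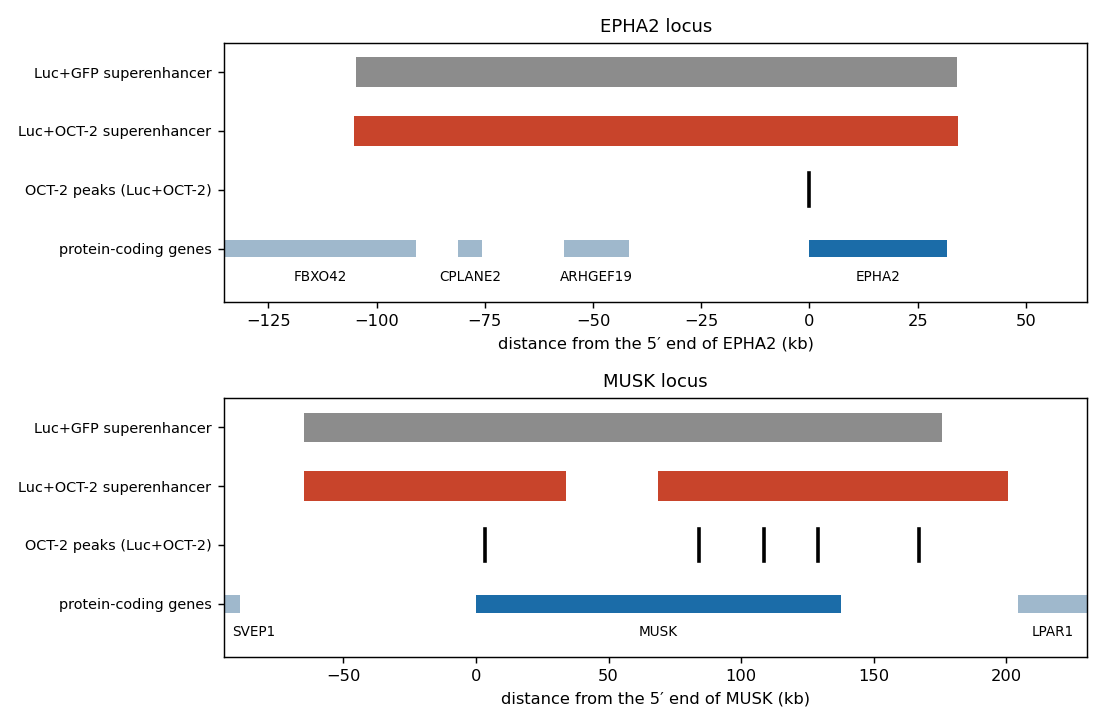
Superenhancers of 231Pa_Luc+GFP (grey) and 231Pa_Luc+OCT-2 (red), OCT-2 peaks (black) and protein-coding genes (blue) around EPHA2 and MUSK, by distance from the 5′ end of each gene in kb. At EPHA2 both regions nearly coincide and the peak stands at the gene's start; at MUSK the OCT-2 list has 2 regions with a gap of 34.6 kb where the GFP list has 1, and 4 of the 5 peaks are in the gene.

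OCT-2 peaks were found within 10 kb of 11 of 49 receptor genes (22.4%), against 15.5% of all protein-coding genes and 24.5%, or 12.0 genes, at the receptors' lengths. The share is above that of all genes and close to that of genes of the same length. It was 4 of 16 (25%) among receptors in the longest decile, over 152.3 kb, where 41.8% of all genes had a peak. In the decile below, 4 of 8 receptors had one (MERTK, RYK, PTK7 and MUSK), against 25.7%, and in the sixth decile 2 of 3, EPHA2 and EPHB4, against 12.9%. In the deciles between these, the seventh and eighth, 0 of 6 and 0 of 5 receptors had a peak, against 14.6 and 18.2%. Several of the longest receptor genes had none: ERBB4 (1163 kb), EPHA6 (946.9 kb), ALK, EPHB1 (465.2 kb) and NTRK3 (397.0 kb). The 14 peaks lay in 9.16 Mb of receptor genes with their flanks, a density of 1.53 peaks per Mb against 2.39 per Mb over all protein-coding genes, and without MUSK it was 1.11. At least 2 peaks were present at MUSK alone, 1 of 49, against 3.63% of all genes and 8.07%, or 3.95 genes, at the receptors' lengths. With EGFR, AXL, ROR1 and MET added, 15 of 53 receptors (28.3%) had a peak, against 13.2 genes at their lengths, and the density was 2.30 per Mb, close to that of all genes.

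**Figure D3:**
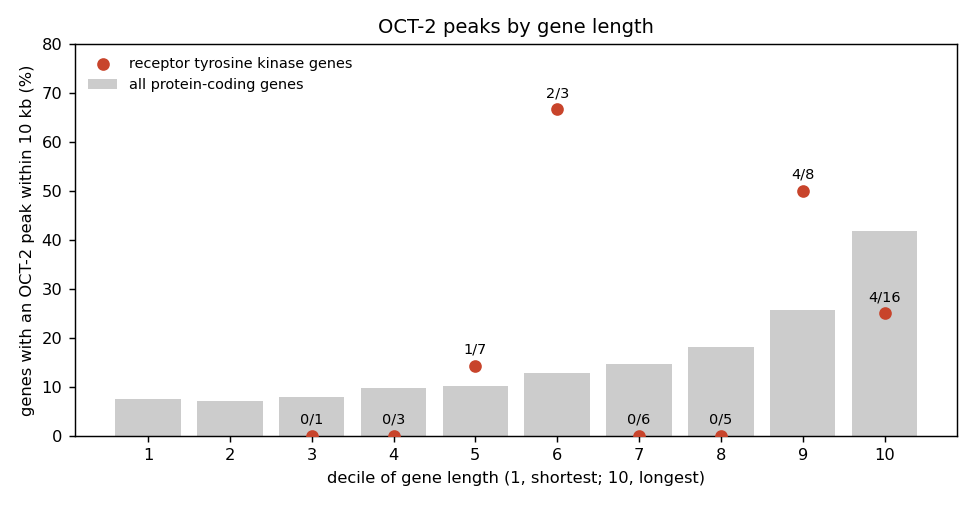
Share of genes with an OCT-2 peak within 10 kb (percent) by decile of gene length, for all protein-coding genes (grey bars) and for receptor genes (red points, with genes over the receptors in that decile). The bars climb to 41.8% in the longest decile, where 4 of 16 receptors had a peak.

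By receptor family, each count is given against the number of genes that the share of all genes gives at the family's lengths. Peaks were present at both insulin-type receptors IGF1R and INSR but not at the orphan INSRR (2 of 3, against 0.938 genes). They were present at 2 of 9 EphA and 2 of 5 EphB genes, against 2.61 and 1.16. Of the collagen receptors DDR1 and DDR2, DDR1 had a peak, against 0.519. Of MERTK and TYRO3, which bind GAS6 and help to clear dying cells, MERTK had a peak, against 0.387. MUSK had peaks and ROR2, a WNT5A receptor, had none, against 0.676. RYK and PTK7, WNT co-receptors whose kinase domains are regarded as inactive, both had 1, against 0.515 genes. The peaks counted for DDR1 and PTK7 lay outside these genes, at the starts of GTF2H4 and SRF. In 9 of the 16 families no member had a peak within 10 kb. These were ErbB (ERBB2, ERBB3, ERBB4), PDGFRA, PDGFRB, KIT, CSF1R and FLT3, the 4 FGF receptors, the 3 VEGF receptors (KDR, FLT1, FLT4), NTRK2 and NTRK3, TEK and TIE1, the family of ALK, LTK and ROS1, RET, and MST1R. In each of these 9 the share of all genes at the family's lengths came to less than 1 gene. It ran from 0.101 genes for MST1R to 0.95 genes for the family of PDGFRA, so finding none is near background. The families are small, from 1 to 9 genes, and no family was tested.

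The 38 receptors without a peak within 10 kb differed widely in how far the nearest peak lay. Nearest was EPHA1 with 20.9 kb, followed by CSF1R (35.3 kb), NTRK3 (42.6 kb), EPHA10 (46.0 kb), EPHB6 (46.8 kb) and ROS1 (49.4 kb), which brought the number of receptors with a peak within 50 kb to 17 (34.7%, against 28.9% of all genes). CSF1R is the receptor for the macrophage growth factor encoded by CSF1. PDGFRA lay 64.0 kb from a peak, ERBB2, the HER2 receptor, 69.5 kb and PDGFRB 95.8 kb. The farthest were FLT1, a VEGF receptor, with 1257 kb, EPHA4 with 1225 kb, EPHA3 with 1076 kb and TEK, the angiopoietin receptor, with 1030.2 kb. Over all 49 receptors the median distance to a peak was 93.8 kb, against 145.0 kb over all protein-coding genes. Neither this comparison nor that of the share within 50 kb took the receptors' greater length into account. Within the Eph family the distances thus ran from a peak at the start of EPHA2 to more than 1 Mb at EPHA3 and EPHA4.

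Most peaks of receptor genes lay deep in the gene body. IGF1R, the receptor for insulin-like growth factors (chr15:98648539-98964530, 316.0 kb), had 1 peak (chr15:98856481-98856808) 208.1 kb downstream of its start. INSR, the insulin receptor (chr19:7112265-7294414, 182.2 kb, minus strand), had 1 (chr19:7199791-7200211) 94.4 kb downstream, and at 421 bp it was the widest of the 14. EPHB2 (chr1:22710838-22921500), a receptor for ephrin-B ligands, had its peak at chr1:22832118-22832389, 121.4 kb downstream of the start. EPHA5 (chr4:65319567-65670489), best known from the nervous system, had its peak at chr4:65508220-65508457, 161.2 kb downstream. MERTK (chr2:111898607-112029561) had its peak at chr2:111975282-111975586, 76.8 kb downstream. In these 5 genes the peak was between 46.2 and 65.9% of the way along the gene body. RYK (chr3:134157133-134250859, minus strand) differed, with its peak (chr3:134232282-134232589) 18.4 kb from the start, at 19.7% of the gene. None of these 6 peaks lay in a superenhancer. The gene table gives no exons, so intron or exon is not stated.

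The peaks counted for PTK7 and DDR1 lay at the starts of neighbouring genes. That of PTK7 (chr6:43171043-43171280), 9.33 kb beyond the end of PTK7, was centred at -108 bp from the start of SRF, the gene of serum response factor. That of DDR1 (chr6:30907896-30908185), 7.74 kb beyond the end of DDR1, was centred at -167 bp from the start of GTF2H4, which encodes a subunit of the transcription factor TFIIH. The SRF promoter holds an octamer inside this peak, beginning 114 bases before the start, and the GTF2H4 window holds none. The SRF window (chr6:43171019-43171318, plus strand, RefSeq GRCh38.p14) is shown with the octamer in capitals, since it is the one place where a peak counted for a receptor covers the octamer in the promoter windows used.
SRF: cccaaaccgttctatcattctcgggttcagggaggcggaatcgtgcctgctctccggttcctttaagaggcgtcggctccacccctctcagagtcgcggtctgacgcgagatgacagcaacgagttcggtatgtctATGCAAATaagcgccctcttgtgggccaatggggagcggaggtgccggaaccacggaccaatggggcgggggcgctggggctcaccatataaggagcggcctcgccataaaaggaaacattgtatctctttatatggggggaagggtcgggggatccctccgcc
Of the 14 peaks, 4 (28.6%) were thus within 1 kb of a protein-coding start, those of EPHA2, EPHB4, PTK7 and DDR1, and only the first 2 of these starts belong to receptors. Over the 5423 peaks with a start of the promoter table on their chromosome the share was 8.0%. Over the 3398 of them within 10 kb of a protein-coding gene, as the 14 had to be, it was 12.8%. That table holds starts for 15843 of the 20037 protein-coding genes, so peaks near other starts are missed and these shares are lower bounds. Without extension of the gene body PTK7, DDR1 and EPHB4 had no peak and 8 receptors remained. The share of all genes was then 10.7%, which is not matched for length. In superenhancers lay 5 of the 14 (35.7%), 4 of them at MUSK and 1 at EPHA2, against 15.6% of the 3398. Each of the 14 was listed as merged from 2 calls, and the widths, 238 to 421 bp with a median of 296.5, lay within the range of all peaks, 238 to 509 bp with a median of 267.0.

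**Figure D4:**
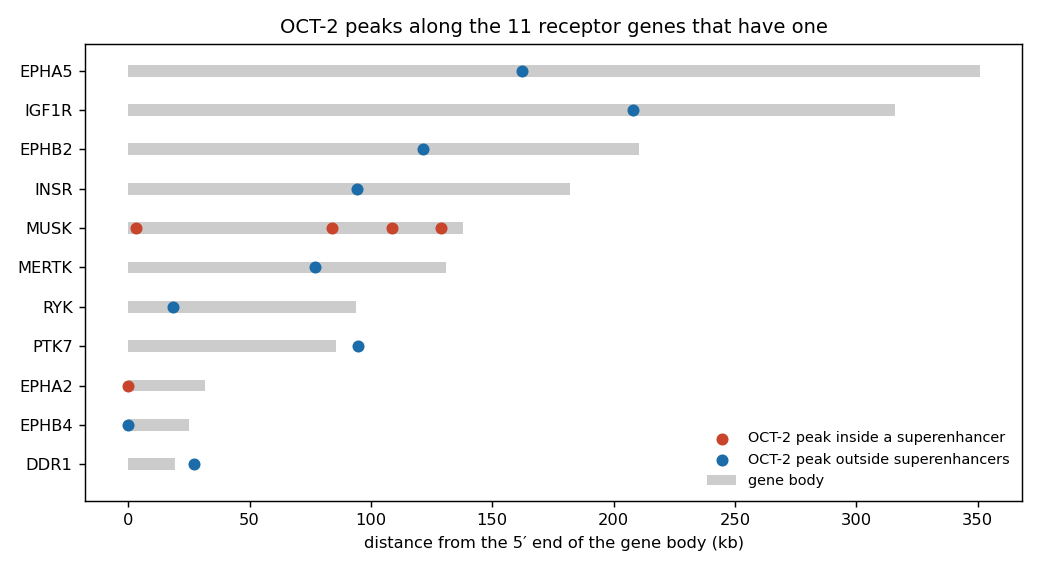
OCT-2 peaks (points) along the 11 receptor genes with a peak within 10 kb, by distance from the 5′ end of the gene body in kb; grey bars are gene bodies, red points lie inside a superenhancer of 231Pa_Luc+OCT-2 and blue points outside. The points of EPHA2 and EPHB4 stand at the start, those of PTK7 and DDR1 beyond the gene's end, and those of the long genes inside the body.

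Most receptor genes were far from any superenhancer. From the gene body to the nearest region, the median was 1690.3 kb for the OCT-2 list, against 1549 kb over all protein-coding genes, and 2897 kb for the GFP list, against 2517 kb. Within 100 kb of a superenhancer of the OCT-2 cells were 7 receptors (14.3%, against 10.6% of all genes, not matched for length). They were EPHA2, MUSK, KDR, DDR1, ALK, RYK and INSRR. For DDR1 (52.1 kb), ALK and RYK (57.4 kb) the region was shared, and the distance in the GFP cells was within 1 kb of that in the OCT-2 cells. The region near RYK overlaps AMOTL2 and that near DDR1 overlaps 11 protein-coding genes, among them IER3 and FLOT1. ERBB2 lay 285.1 kb from a Luc+OCT-2-only region of 14.0 kb at CSF3 and MED24, and 686.6 kb from the nearest region of the GFP cells.

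KDR and INSRR were the receptors nearest to a Luc+OCT-2-only region. KDR, the main VEGF receptor of endothelial cells (chr4:55078481-55125595, minus strand), lay 43.6 kb from a region of 16.7 kb (chr4:55169183-55185913) that overlaps no protein-coding gene and holds 1 OCT-2 peak, 58.4 kb from KDR. KIT and PDGFRA, receptors for stem cell factor and platelet-derived growth factor in the same gene cluster, lay 428.5 and 870.9 kb from it. In the GFP cells the nearest region to these 3 genes was 23402 to 24230 kb away. INSRR lay 71.3 kb from a region of 43.1 kb (chr1:156725743-156768803) that overlaps 5 other genes, among them HDGF and PRCC, against 708.9 kb to the nearest region in the GFP cells.

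The class of the nearest region was also compared. For 28 of 49 receptors (57.1%) the nearest superenhancer of the OCT-2 cells was a Luc+OCT-2-only one, against 42.3% of all genes. A region of the OCT-2 cells was nearer by over 10 kb at 26 of 47 receptors (55.3%, against 43.2% of all genes), both distances were within 10 kb at 13 (27.7%, against 43.4%), and a region of the GFP cells was nearer by over 10 kb at 8 (17%, against 13.4%). Among these 8 were PDGFRB (291.5 kb from a GFP region, 864.2 kb from an OCT-2 region), CSF1R, FGFR1, EPHA1, EPHA8 and EPHB6, whose nearest region in the GFP cells was Luc+GFP-only. The OCT-2 list is longer, which by itself brings its regions nearer, and the medians above show how long most of these distances are. FLT1 and FLT3 lie on chromosome 13, where the GFP list has no region, and the nearest region of the OCT-2 cells was 15736 and 16130 kb from them.

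**Figure D5:**
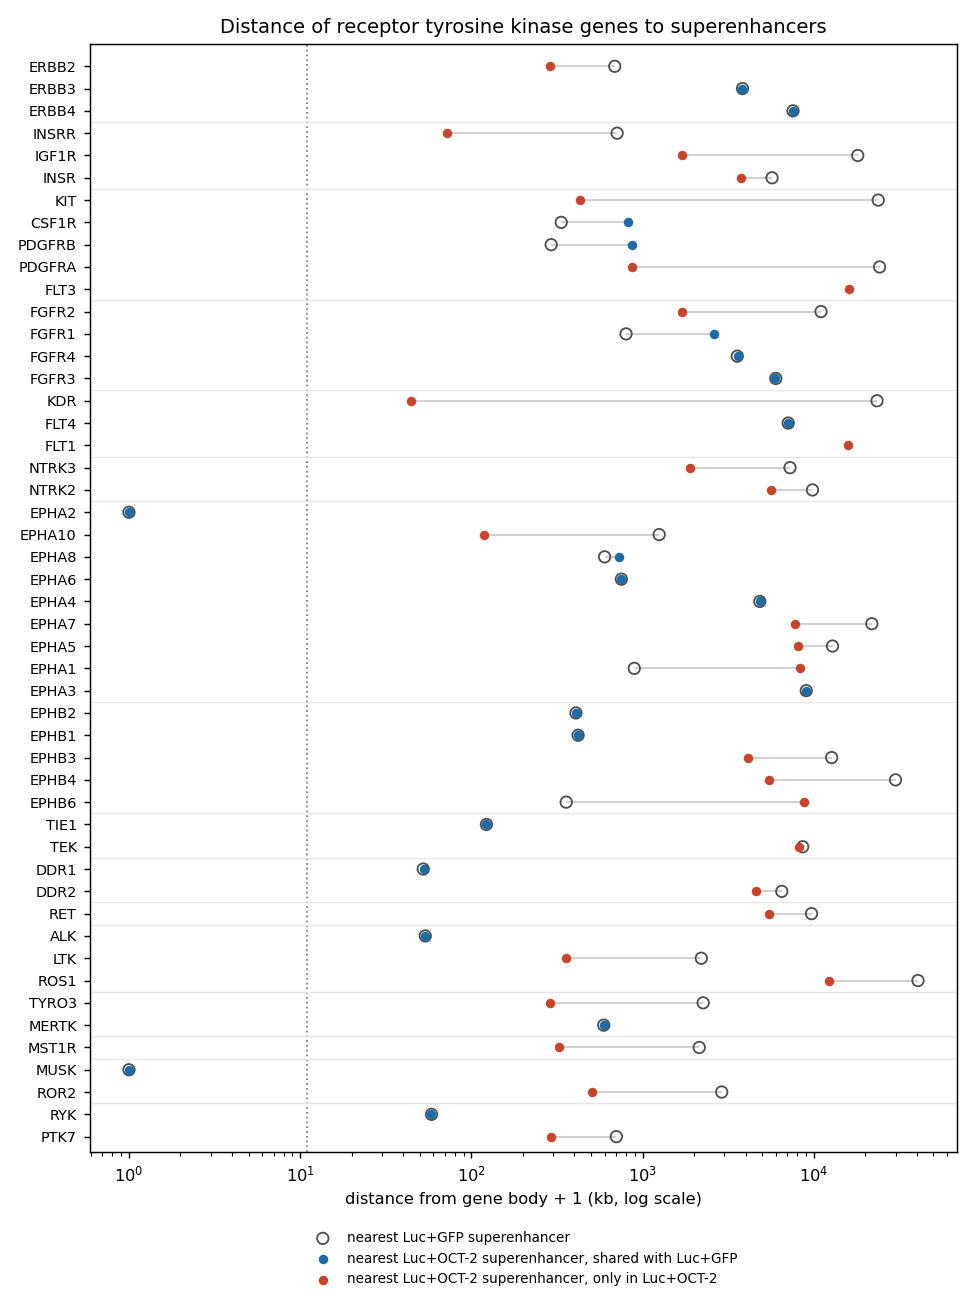
Distance in kb plus 1 (log axis) from each of the 49 receptor gene bodies, ordered by family, to the nearest superenhancer of 231Pa_Luc+GFP (open circles) and of 231Pa_Luc+OCT-2 (filled; blue, shared; red, Luc+OCT-2-only); the dotted line marks 10 kb. EPHA2 and MUSK are the receptors left of the line, and the red point of KDR stands at 43.6 kb with its open circle at 23402 kb.

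Ligands of receptor tyrosine kinases were taken from a list of 58 genes, some of which, such as EGF and TGFA, bind EGFR. At Luc+OCT-2-only regions lay 2 (3.45%, against 1.88% of all genes at their lengths), AGRN, the gene of agrin, and PDGFC, a ligand of PDGFRA. At shared regions lay 5 (8.62%, against 3.82%): CSF1, EFNA2, HBEGF, VEGFB and again PDGFC, which meets both classes. PDGFC (chr4:156760454-156971799) overlapped a Luc+OCT-2-only region of 69.6 kb with 4 OCT-2 peaks and a shared region of 74.6 kb with none. The region of CSF1, which encodes the ligand of CSF1R, was 228.4 kb wide in the OCT-2 cells and held 5 peaks. The region at AGRN, 67.6 kb wide, held no peak. Peaks within 10 kb were present at 13 of 58 ligand genes (22.4%, against 17.1% at their lengths). The ligand AGRN, which acts on MUSK through a co-receptor, and MUSK itself were both at superenhancers. So were EPHA2 and EFNA2, a ligand of EphA receptors, but EFNA2 lay 7.61 kb outside its region and counts through its flank. HBEGF, like EGF and TGFA a ligand of EGFR, was at a shared region, as was EGFR, which is outside the receptor list. The receptors of PDGFC, CSF1 and VEGFB were at none. These pairs were picked after the values were seen, and no background share was computed for them.

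Of 22 adaptors and effectors, IRS1, the substrate of INSR and IGF1R, met a Luc+OCT-2-only region (47.4 kb, with 1 OCT-2 peak), and SHC1 and SOS2 lay at shared ones. These are 1 and 2 of 22, 4.55 and 9.09%, against 1.81 and 3.55% at their lengths, and 6 of 22 had a peak (27.3%, against 22.9%). SOS2 (chr14:50117130-50231882, minus strand) met its region only at the end of the gene, as the region ends at chr14:50117305. The region of SHC1 overlaps further genes, PMVK and CKS1B among them. Of 17 feedback inhibitors, 5 lay at superenhancers of the OCT-2 cells. The MAP kinase phosphatase gene DUSP4 was at a Luc+OCT-2-only region of 59.6 kb without a peak. DUSP6, ERRFI1, PTPN1, which encodes the phosphatase that acts on the insulin receptor, and SPRY4, a Sprouty gene, were at shared regions (4 of 17, 23.5%, against 3.98% at their lengths). A peak within 10 kb was present at 5 of 17 (29.4%, against 17.2%). These lists were chosen with earlier results of the data known and were not tested, so no difference between them and the receptors is claimed. Of the 4 receptors outside the list, EGFR and AXL were at shared superenhancers (2 of 4, against 3.62% of all genes at their lengths) and ROR1 at a Luc+GFP-only one (1 of 4, against 0.262%). All 4, MET included, had OCT-2 peaks, 9 in all and 6 of them at ROR1, against 31.0%, or 1.24 genes, at their lengths. Leaving these genes out thus lowers the density and the counts given for the 49, apart from the count at Luc+OCT-2-only regions.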

How the data were processed

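Each immunoprecipitation used 5 µg of antibody, per the labels' protocols. Among tools, HOMER, bedtools, Bowtie and Bowtie2 2.2.2.6 are listed, without their roles, as are both human builds hg38 and hg19, per the submitters' processing notes. How regions were called is not stated in the labels. The deposited lists give positions without counts, scores or a value for each sample. The 3 lists in hg38 were used, and 5 OCT-2 peaks on other contigs, of 5741, were left out. The other 7 lists, in hg19 or of unstated build, were not used, because the gene table is of GRCh38.p14 and no coordinates were converted.

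Overlaps were computed with Python 3.11.15, numpy 2.4.6 and pandas 2.3.3 and checked on simulated data with planted regions. Lengths were matched by deciles of gene length. Starts come from the RefSeq promoter table. Coordinates are printed 1-based. No test was run: the lists hold no replicate values. Members and lists were chosen with earlier results of these data known. Every member at a superenhancer or with a peak is named, as are genes of the other lists at superenhancers; further receptors, KDR and ALK among them, were singled out after their values were seen.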

Additional observations from a re-analysis of the deposited data

How the results depend on the processing

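No paired analysis was possible because each list merges both replicates and no result comes from a test; for the same reason no replicate could be left out. Of the alternatives to the main counts, 21 gave a value within 1.5 times and 10 did not. With gene bodies extended by 50 kb, or with the nearest gene alone, Luc+OCT-2-only regions met 1 receptor in place of 0, KDR, against 2.71 and 0.988% of all genes. By the nearest gene, shared regions met 1 receptor in place of 2, MUSK (against 1.51% of all genes), since 4 genes overlap the region of EPHA2 and each region then goes to the one whose middle is nearest. Receptors with an OCT-2 peak numbered 17 with an extension of 50 kb, against 28.9% of all genes, a share not matched for length. They numbered 2 within 1 kb of either gene end or, in a setting chosen after seeing the data, of a RefSeq start. Without peaks inside superenhancers the density at receptors was 0.983 per Mb, against 2.03 over all genes. With EGFR, AXL, ROR1 and MET added, which was chosen after seeing the data, shared regions met 4 receptors, Luc+GFP-only regions 1, and the density was 2.30 per Mb. ATGCNAAT in place of ATGCAAAT, also chosen after seeing the data, gave the same 1 window. Of those for the related lists and the length-matched shares, 17 stayed within 1.5 times and 3 did not, all counts of genes with a peak at 50 kb. How many regions the authors' threshold lets through limits every count, and depth is unknown.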
